A study of Mus musculus with 6 samples.

Results

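The CC chemokines *Ccl2*, *Ccl3*, *Ccl4*, *Ccl5*, *Ccl6*, *Ccl7*, *Ccl8*, *Ccl9*, *Ccl12* and *Ccl24* were examined in RNA-seq libraries of mouse bone marrow-derived macrophages (BMDMs). They were chosen by gene symbol, and all 10 had a row among the 55335 genes of the table. BMDMs were grown for 7 days in 25 ng/ml macrophage colony-stimulating factor and carried intact *Cd177*. They were then kept for 24 h with neutrophils taken by magnetic sorting from the injured spinal cord of adult male mice at 3 days post-injury (dpi), and were recovered as Ly6G-negative cells by flow sorting. The groups differed in the neutrophil donor. In WT N the neutrophils came from *Cd177* WT mice, and in KO N from *Cd177*-/- mice, which lack this neutrophil surface protein and whose knockout is not described as limited to neutrophils. There were 3 libraries in each group and no library of BMDMs without neutrophils. The labels do not say whether replicates were separate cultures or animals, so p-values measure the spread between these libraries, which may be technical. The question was how the genotype of the neutrophils bears on the chemokine transcripts of the macrophages beside them.

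Chemokines are small secreted proteins that attract leukocytes along a concentration gradient by binding G protein-coupled receptors. The CC family is named for a pair of neighbouring cysteines near the start of the mature protein. Macrophages are a main source of several members, and after spinal cord injury such signals draw blood monocytes and neutrophils into the lesion. The members fall by role into monocyte chemoattractants that act largely through CCR2 (*Ccl2*, *Ccl7*, *Ccl12*), the related *Ccl8*, macrophage inflammatory proteins and their relative (*Ccl3*, *Ccl4*, *Ccl5*), abundant myeloid ligands of CCR1 (*Ccl6*, *Ccl9*), and the eosinophil attractant *Ccl24*, a ligand of CCR3.

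The coding sequence around the cysteine pair shows what the members share and how far they differ elsewhere. Each line, for 9 of the members, gives 36 bases of the GENCODE M21 coding transcript (GRCm38), 5′ to 3′, with the neighbouring cysteine codons in capitals and 15 bases on either side. For *Ccl24*, which holds 2 such pairs, the later one is shown.
Ccl2 (chr11:82036491-82036526, plus strand): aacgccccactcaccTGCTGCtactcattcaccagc
Ccl7 (chr11:82046523-82046558, plus strand): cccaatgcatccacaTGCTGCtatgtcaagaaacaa
Ccl12 (chr11:82102619-82102654, plus strand): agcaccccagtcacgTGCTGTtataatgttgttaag
Ccl8 (chr11:82116041-82116076, plus strand): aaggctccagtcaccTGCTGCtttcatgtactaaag
Ccl5 (chr11:83529227-83529262, minus strand): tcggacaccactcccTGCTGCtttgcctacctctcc
Ccl4 (chr11:83663467-83663502, plus strand): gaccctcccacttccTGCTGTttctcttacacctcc
Ccl6 (chr11:83589371-83589406, minus strand): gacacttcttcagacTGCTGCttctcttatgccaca
Ccl9 (chr11:83575911-83575946, minus strand): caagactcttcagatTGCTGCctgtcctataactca
Ccl24 (chr5:135572650-135572685, minus strand): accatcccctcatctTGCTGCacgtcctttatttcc
Each window lies within 1 coding exon, which is exon 3 of 4 in *Ccl6* and *Ccl9* and exon 2 of 3 in the other genes shown. Over the whole coding sequence the closest pair was *Ccl3* and *Ccl4*, with 66.7% identical positions in a global alignment, followed by *Ccl6* and *Ccl9* with 64.6% and *Ccl8* and *Ccl12* with 64.4%. The longest exact run shared by transcripts of any pair was 25 bases (*Ccl6* and *Ccl9*), which bears on how far reads could be shared between them.

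Levels were deposited as FPKM, a fragment number divided by transcript length and library total, without counts. From the step between low values the depth was about 17600000 to 20300000 fragments per library, an approximate figure, since only 37.3% to 40.4% of low values came within 0.1 of a whole fragment where 20% would by chance. The test was limma on log2(FPKM + 0.5) over the 13367 genes averaging 0.5 FPKM or more. Changes of low genes come out too small on this scale, and "called" below means a Benjamini-Hochberg adjusted p-value under 0.05 over all of them. In KO N, 10.5% of tested genes were called lower and 27.1% higher, 37.6% in either direction, and the median log2 fold change over tested genes was 0.19. All 9 macrophage markers were tested. *Cd68* was at 456 FPKM or more in every library, and the list was not constant, with 2 genes called lower, 2 higher (*Adgre1* and *Mertk*) and 5 not called. The lower ones were *Cd14*, an endotoxin co-receptor (1010 ± 150 to 99.4 ± 8.39 FPKM), and the Fc receptor *Fcgr1* (121 ± 2.67 to 33.8 ± 0.71 FPKM, SD, n = 3 each). Under median-of-ratios scaling 3 were called lower and 0 higher. The *Cd177* level was 0.545, 0.309 and 0.521 FPKM in libraries with the WT N label and 1.79, 1.84 and 2.28 FPKM in those with the KO N label. The sequenced cells carry the intact gene, so this does not check their genotype, but it runs against the labels, and every direction below is between libraries as labelled. Neutrophil markers moved the same way as *Cd177*. Their summed level over 12 genes was 182 to 243 FPKM in WT N and 522 to 536 FPKM in KO N, 8 of the 9 tested genes were called higher (7 with median-of-ratios or upper-quartile scaling; *Cxcr2* passed the filter only through KO N) and *Mmp8* was called lower, and the sorting marker *Ly6g* was at 0 in each WT N library and at 0.66, 0.547 and 0.403 FPKM in KO N.

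CC chemokine transcripts were lower in the libraries labelled KO N. Of the 10 genes, 9 reached the level tested, each of them in both group means, and 7 were called lower and 0 higher, against the 10.5% and 27.1% of all tested genes. The 7 were *Ccl2*, *Ccl5*, *Ccl6*, *Ccl7*, *Ccl8*, *Ccl9* and *Ccl12*, and each fell more than 2-fold, while 4.32% of tested genes were called lower with a fall of that size. *Ccl3* and *Ccl4* did not pass the test. The median log2 fold change of the 9 genes was -1.42. The summed level of all 10 was 769, 785 and 971 FPKM in WT N and 281, 282 and 303 FPKM in KO N, so KO N held 34.3% of the WT N mean. *Ccl6*, *Ccl9* and *Ccl2* made up 71.6% of the 553 FPKM lost, and *Ccl5* and *Ccl8*, whose fold changes were the largest, made up 15.8%.

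**Figure D1:**
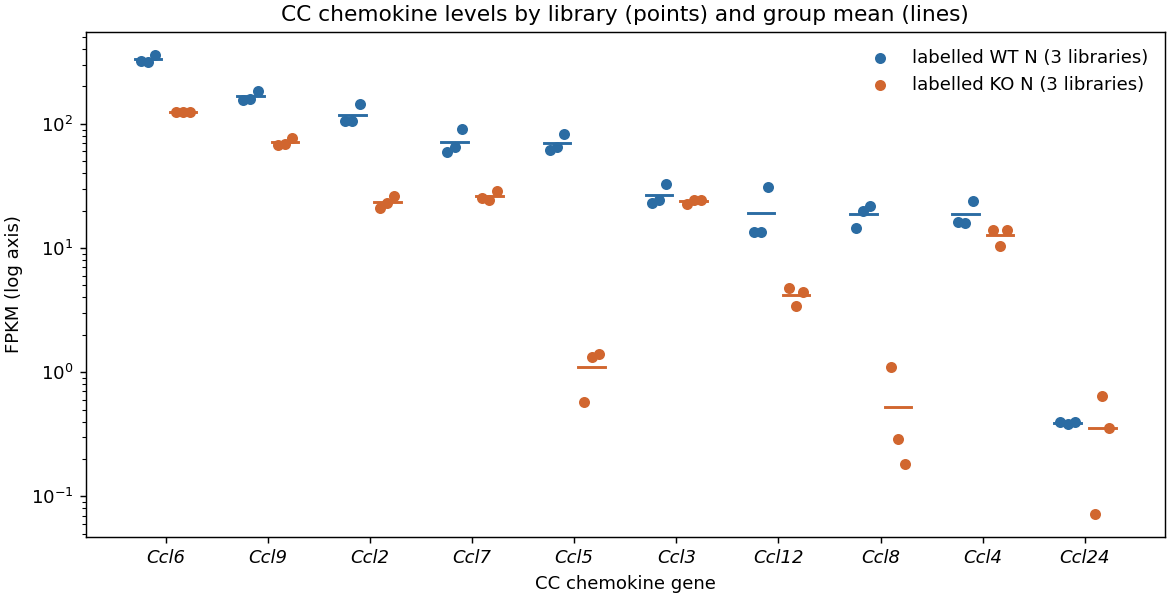
Level of each CC chemokine gene in FPKM on a log axis, with 1 point per library (blue, labelled WT N; orange, labelled KO N; 3 each) and a line at each group mean. The groups are apart for 8 genes, all lower in KO N and by a wide margin for Ccl5 and Ccl8, and overlap for Ccl3 and Ccl24. Of all tested genes, 14.4% were apart in that direction.

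*Ccl2* (ENSMUSG00000035385, chromosome 11 from 82035571 to 82037453), the main attractant of CCR2-bearing monocytes, had 106, 106 and 144 FPKM in WT N and 21.01, 22.9 and 26.1 FPKM in KO N. Every KO N library was below every WT N library, and the replicate spread was small beside the gap. On the log2 scale KO N minus WT N was -2.31 (standard error, SE, 0.15, adjusted p = 6.46e-05, limma). Its neighbour *Ccl7* (ENSMUSG00000035373, chromosome 11 from 82045712 to 82047525), which binds CCR2 and also CCR1 and CCR3, had 59.5, 64.6 and 91.3 FPKM in WT N and 25.4, 24.2 and 28.6 FPKM in KO N. The groups were again apart, with a smaller log2 fold change of -1.42 (SE 0.17, adjusted p = 0.000903, limma). *Ccl12* (ENSMUSG00000035352, chromosome 11 from 82101845 to 82103400), a mouse CCR2 ligand close to *Ccl2* in function, had 13.6, 13.4 and 30.9 FPKM in WT N and 4.75, 3.44 and 4.38 FPKM in KO N. WT N replicate 3 stood far above the other two and made this the most variable member in WT N, with a coefficient of variation of 52.2%. The log2 fold change of *Ccl12* was -1.98 (SE 0.32, adjusted p = 0.00362, limma), and it was -1.59 without that library (adjusted p = 0.000502).

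The ratio of *Ccl2* to *Ccl7* within a library, which no scaling between libraries can move, was 1.78, 1.64 and 1.58 in WT N and 0.829, 0.948 and 0.911 in KO N. *Ccl2* was thus the more abundant of the pair in each WT N library and the less abundant in each KO N library. Ratios were compared for 8 pairs with an exact two-sided permutation test, whose smallest possible p-value with 3 libraries a group is 0.1. *Ccl2* to *Ccl7* reached that limit (exact permutation p = 0.1, 0.11 after Benjamini-Hochberg adjustment over the 8 pairs). The ratio of *Ccl2* to *Ccl12* was 7.81, 7.88 and 4.66 in WT N and 4.42, 6.67 and 5.95 in KO N. Those ranges overlapped (exact permutation p = 0.5), so a difference between the changes of *Ccl2* and *Ccl12* was not shown.

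*Ccl8* (ENSMUSG00000009185, chromosome 11 from 82115185 to 82116799), an agonist of CCR8 in the mouse, had 14.6, 19.8 and 21.7 FPKM in WT N and 1.11, 0.288 and 0.181 FPKM in KO N. The KO N values lay near the floor of the assay, since they correspond to about 10, 3 and 2 fragments where WT N had 142 to 200. Its log2 fold change was -4.32 (SE 0.33, adjusted p = 0.000146, limma), and it moved to -5.19 with a pseudocount of 0.1 and to -3.72 with a pseudocount of 1. *Ccl12* lies next to *Ccl8*, and the ratio of *Ccl12* to *Ccl8* was 0.93, 0.676 and 1.43 in WT N and 4.29, 11.9 and 24.2 in KO N (exact permutation p = 0.1). These genes were about equal in WT N and unequal in KO N.

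*Ccl5* (ENSMUSG00000035042, chromosome 11 from 83525778 to 83530518), which acts on several receptors, CCR1 and CCR3 among them, and is induced late in inflamed macrophages as well as in T and NK cells, changed most. It had 62.0, 65.5 and 82.7 FPKM in WT N and 0.578, 1.33 and 1.41 FPKM in KO N, or about 5, 14 and 14 fragments in the latter. The KO N mean was 1.58% of the WT N mean. The log2 fold change was -5.49 (SE 0.24, adjusted p = 1.13e-05, limma), the rank 9 fall among all tested genes, and 0.112% of tested genes fell by more than 5 on this scale. Of 9 T and NK cell markers none reached the level tested. Their summed level was 0.482 to 1.59 FPKM in WT N and 0.329 to 0.786 FPKM in KO N, and *Cd2* and *Cd3d* were listed at 0 in all 6 libraries. Profiles over the 6 libraries were compared with *Ccl5* by Euclidean distance of centred log2 values. The closest tested genes were *Ifit1* (0.296), *Ifit2* (0.625) and *Ifit3* (0.648), all interferon-induced, with log2 fold changes of -5.51, -5.55 and -5.22. The median gene lay at 7.02. A large distance here mostly reflects an unlike log2 fold change, so that median mainly restates the fall of *Ccl5*. *Ifit1* had 66.8, 70.9 and 79.8 FPKM in WT N and 0.672, 1.56 and 1.19 FPKM in KO N, which nearly coincides with *Ccl5* library by library.

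*Ccl3* (ENSMUSG00000000982, chromosome 11 from 83647844 to 83649355), a ligand of CCR1, was 1 of 3 members not called, with *Ccl4* and *Ccl24*. It had 23.1, 24.1 and 33.0 FPKM in WT N and 22.6, 24.2 and 24.5 FPKM in KO N, so 2 of the WT N libraries lay within the range of KO N. The log2 difference was -0.15 with a 95% interval from -0.49 to 0.19 (adjusted p = 0.455, limma), an interval that still holds a modest difference in either direction. *Ccl4* (ENSMUSG00000018930, chromosome 11 from 83662584 to 83664683), a macrophage inflammatory protein usually made together with *Ccl3*, had 16.3, 16.0 and 23.7 FPKM in WT N and 13.98, 10.3 and 14.1 FPKM in KO N. Its groups did not overlap, which held in the same direction for 14.4% of all tested genes. The log2 difference of -0.52 (95% interval -0.97 to -0.07) missed the threshold (adjusted p = 0.0722, limma), and it passed under each of the 4 scalings between libraries and with replicate number as a block (adjusted p = 0.023), so *Ccl4* is best read as unsettled.

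Within a library, *Ccl3* was 1.41, 1.51 and 1.39 times the level of *Ccl4* in WT N and 1.62, 2.36 and 1.74 times in KO N. The contrast with *Ccl5* was far larger. The ratio of *Ccl3* to *Ccl5* was 0.373, 0.368 and 0.398 in WT N and 39.2, 18.2 and 17.4 in KO N, and that of *Ccl4* to *Ccl5* was 0.263, 0.243 and 0.287 in WT N and 24.2, 7.73 and 9.99 in KO N (exact permutation p = 0.1 for each of these ratios, the smallest possible). *Ccl5* therefore exceeded both in each WT N library and lay below both in each KO N library.

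**Figure D2:**
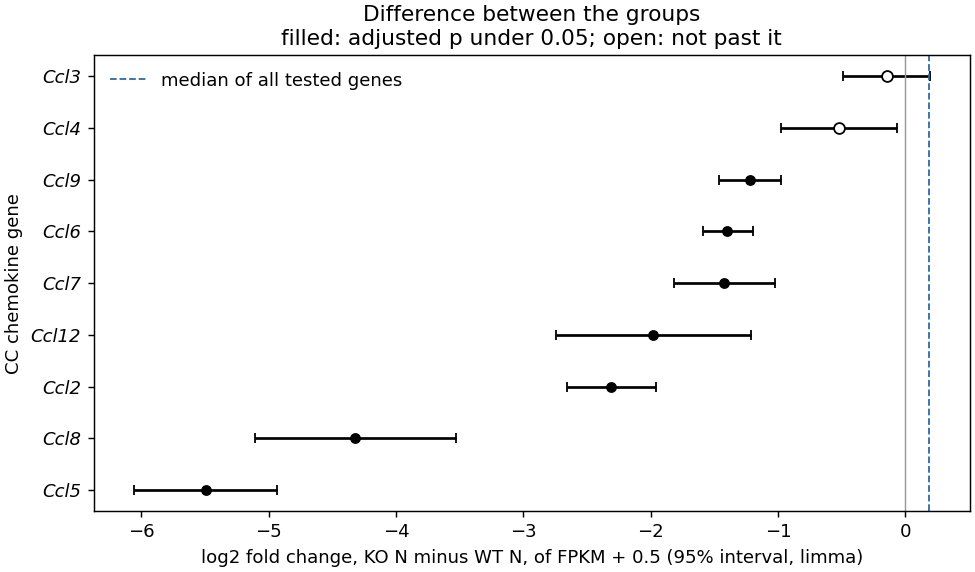
log2 fold change (KO N minus WT N, of FPKM + 0.5) of the 9 tested CC chemokine genes, with 95% intervals from limma. Filled points passed an adjusted p of 0.05 and open points did not. The points run from Ccl5 at -5.49 to Ccl3 at -0.15, whose interval runs from -0.49 to 0.19. The dashed line marks the median of all tested genes at 0.19.

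*Ccl6* (ENSMUSG00000018927, chromosome 11 from 83587882 to 83593087), a rodent CCR1 ligand that myeloid cells express without stimulation, was the most abundant member in each of the 6 libraries. It had 319, 316 and 357 FPKM in WT N and 124, 126 and 126 FPKM in KO N. The KO N libraries were almost identical, with a coefficient of variation of 0.824%, and all lay far below WT N. The log2 fold change was -1.40 (SE 0.08, adjusted p = 4.21e-05, limma). *Ccl9* (ENSMUSG00000019122, chromosome 11 from 83572919 to 83578636), its closest relative beside it on the chromosome and also a CCR1 ligand, had 155, 160 and 185 FPKM in WT N and 67.6, 68.8 and 77.3 FPKM in KO N. The log2 fold change of *Ccl9* was -1.22 (SE 0.10, adjusted p = 0.000212, limma). *Ccl6* and *Ccl9* stayed close to each other in proportion. Their ratio was 2.06, 1.98 and 1.93 in WT N and 1.83, 1.83 and 1.62 in KO N, apart but by 0.18 on the log2 scale (exact permutation p = 0.1). A non-coding gene on the opposite strand overlaps *Ccl6*, and whether counting used strand is not given in the sources used here. That gene was listed at means of 0.0826 FPKM in WT N and 0.111 FPKM in KO N.

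*Ccl24* (ENSMUSG00000004814, chromosome 5 from 135569937 to 135573049), an eosinophil attractant of alternatively activated macrophages, lay under the level tested. It had 0.4, 0.383 and 0.397 FPKM in WT N and 0.0723, 0.641 and 0.356 FPKM in KO N, about 2 to 17 fragments. The KO N values lay on both sides of WT N. Without the filter on low values its log2 difference was -0.12 (adjusted p = 0.793, limma). A difference in *Ccl24* was not detectable at this depth.

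The order of levels changed with the group. In WT N the means fell in the order *Ccl6*, *Ccl9*, *Ccl2*, *Ccl7*, *Ccl5*, *Ccl3*, *Ccl12*, *Ccl8*, *Ccl4* and *Ccl24*. *Ccl7* and *Ccl5* overlapped, as did each neighbouring pair from *Ccl3* to *Ccl4*. In KO N the order was *Ccl6*, *Ccl9*, *Ccl7*, *Ccl3*, *Ccl2*, *Ccl4*, *Ccl12*, *Ccl5*, *Ccl8* and *Ccl24*, in which *Ccl7*, *Ccl3* and *Ccl2* overlapped as neighbours and so did *Ccl5*, *Ccl8* and *Ccl24*. As a share of the summed level, *Ccl6* and *Ccl9* together held 55.9% to 61.6% in WT N and 67.1% to 69.0% in KO N. The share of *Ccl2* was 13.5% to 14.8% in WT N and 7.48% to 8.62% in KO N. That of *Ccl5* was 8.31% ± 0.23 (SD, n = 3) and 0.381% ± 0.15, and that of *Ccl3* was 3.16% ± 0.21 and 8.26% ± 0.30. *Ccl7* held nearly the same share in both groups, 8.46% ± 0.86 and 9.03% ± 0.44.

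**Figure D3:**
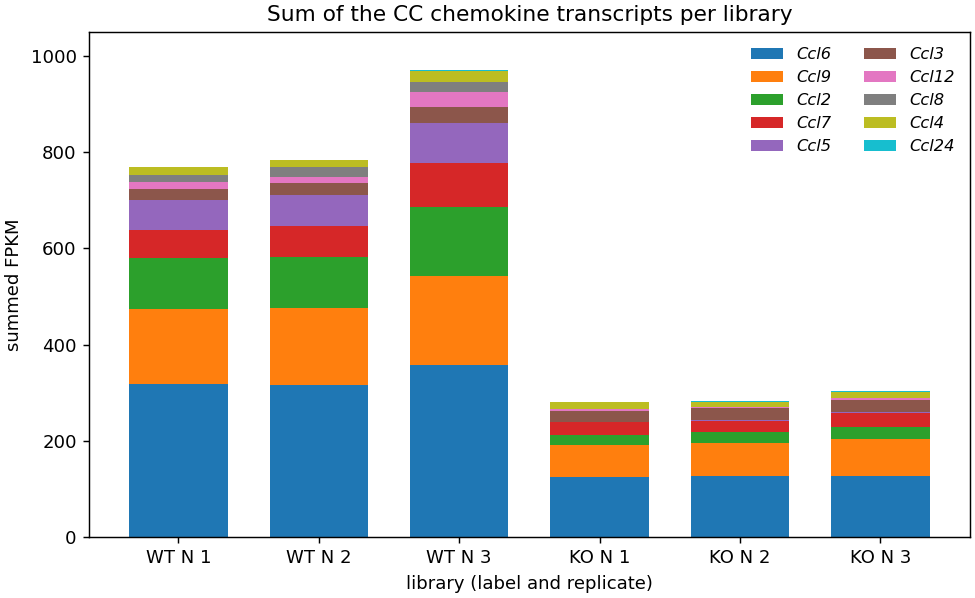
Summed FPKM of the 10 CC chemokine genes in each library, stacked by gene from Ccl6 at the bottom to Ccl24 at the top. The 3 bars labelled WT N reach 769 to 971 FPKM and the 3 labelled KO N reach 281 to 303 FPKM, and the purple block of Ccl5 is visible in WT N but hardly in KO N.

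WT N replicate 3 was the highest WT N library for 9 of the 10 members, *Ccl24* being the exception, whereas it was the highest for 39.5% of all tested genes. Its excess over the mean of the other WT N libraries ran from 1.13-fold for *Ccl6* to 2.29-fold for *Ccl12* among these 9. Over all tested genes the median of this ratio was 0.982. The FPKM total of WT N replicate 3 was the largest of its group, 340717 against 305500 and 302532, and its part in these excesses was not tested. With WT N replicate 3 left out, 7 members were called lower as before, and the *Ccl3* difference became 0.01. With replicate 3 of both groups left out, a setting chosen after these values were seen, 7 were also called.

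Of the members, 9 lie on chromosome 11 in a pair of clusters and *Ccl24* lies on chromosome 5. The first cluster spans 270.1 kb (82035571 to 82305690) and holds *Ccl2*, *Ccl7*, *Ccl12* and *Ccl8*, with *Ccl11* and *Ccl1*, which had at most 0.05 FPKM. All 4 members there were called lower. The second cluster starts 1220.1 kb further on, spans 138.9 kb (83525778 to 83664683) and holds *Ccl5*, *Ccl9*, *Ccl6*, *Ccl3* and *Ccl4*. Here the changes were uneven, from -5.49 for *Ccl5* through -1.22 and -1.40 for *Ccl9* and *Ccl6* to the uncalled values of *Ccl3* and *Ccl4*, the pair farthest from *Ccl5*. None of the other annotated genes inside either span reached the level tested.

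**Figure D4:**
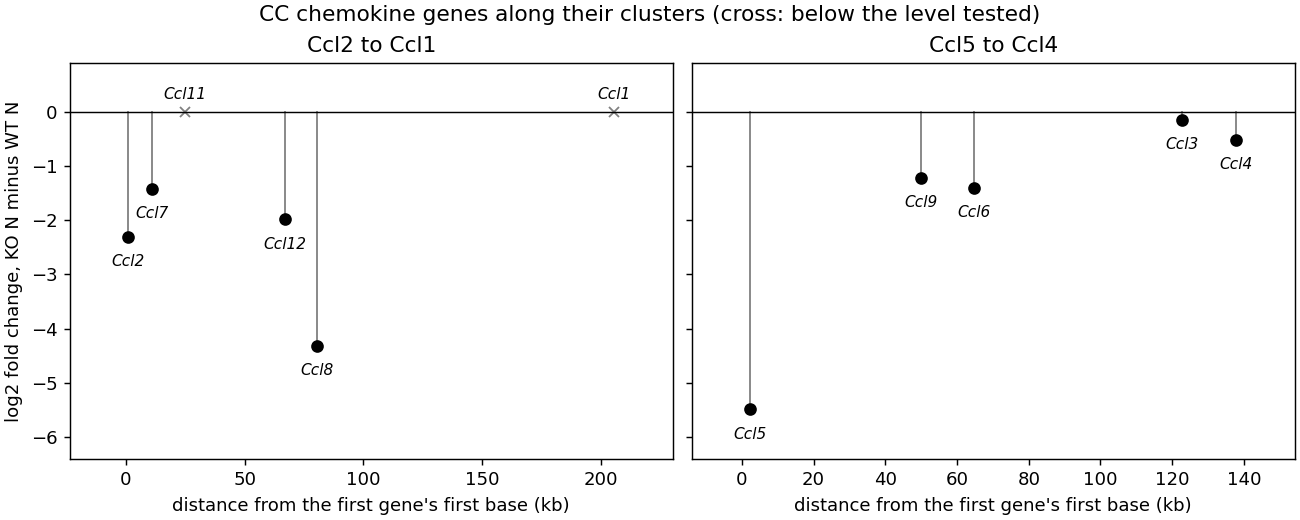
log2 fold change (KO N minus WT N) of the CC chemokine genes of chromosome 11 against distance in kb from the first base of the first gene of each cluster, left for Ccl2 to Ccl1 and right for Ccl5 to Ccl4. All 4 tested genes of the left cluster lie between -1.42 and -4.32, and the right cluster runs from Ccl5 at -5.49 to Ccl3 at -0.15; crosses mark genes below the level tested.

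Promoter sequences (RefSeq, GRCm38.p6, 250 bases before to 50 after the annotated start) were at hand for 5 members, *Ccl3*, *Ccl6*, *Ccl8*, *Ccl9* and *Ccl12*. Those of *Ccl8*, *Ccl9* and *Ccl3* are printed because they span the responses, *Ccl8* with the largest change among the 5, *Ccl9* with a moderate change and *Ccl3* with none called. Each was searched on both strands for the interferon-stimulated response element written as GAAA, any 2 bases, GAAA, the STAT site TTCNNNGAA, the NF-kB consensus and TATAAA. Capitals mark matches.
Ccl8 (chr11:82114935-82115234, plus strand): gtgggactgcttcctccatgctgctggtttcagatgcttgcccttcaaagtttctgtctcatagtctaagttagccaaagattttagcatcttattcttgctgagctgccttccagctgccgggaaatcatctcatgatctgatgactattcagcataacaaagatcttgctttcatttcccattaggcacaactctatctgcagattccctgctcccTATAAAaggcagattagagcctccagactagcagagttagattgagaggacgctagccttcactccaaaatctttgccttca
Ccl9 (chr11:83578587-83578886, minus strand): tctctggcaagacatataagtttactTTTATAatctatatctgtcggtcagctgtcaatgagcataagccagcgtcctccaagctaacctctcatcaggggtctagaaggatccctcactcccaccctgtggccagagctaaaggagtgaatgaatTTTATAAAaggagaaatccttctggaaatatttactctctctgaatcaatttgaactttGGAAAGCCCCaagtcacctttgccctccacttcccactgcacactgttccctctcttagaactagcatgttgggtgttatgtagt
Ccl3 (chr11:83649329-83649628, minus strand): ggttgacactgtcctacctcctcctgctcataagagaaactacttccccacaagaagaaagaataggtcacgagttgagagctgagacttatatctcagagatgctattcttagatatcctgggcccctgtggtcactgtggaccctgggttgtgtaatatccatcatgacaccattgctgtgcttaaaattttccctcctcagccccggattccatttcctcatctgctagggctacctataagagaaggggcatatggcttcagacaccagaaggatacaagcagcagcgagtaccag
TATAAA was found 32 bases before the start in *Ccl8*, 31 bases before it in *Ccl12*, and in *Ccl9* at 92 bases before it, where a match on the other strand overlaps, with another further upstream. The NF-kB consensus was found once, in *Ccl9* at 35 bases before the start on the opposite strand. Neither the interferon element nor TTCNNNGAA was found in these 5 windows, and *Ccl3* and *Ccl6* held no match of any kind. Among 32851 promoter windows of the same length, TATAAA occurred in 13.6%, TTCNNNGAA in 8.3%, the NF-kB consensus in 4.5% and the interferon element in 3.4%. A match is a description of letters and was not tied to binding here.

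The rest of the CC family was hardly expressed. Of 14 further genes, 13 had a row, 5 were listed at 0 in all libraries and 3 reached the level tested. *Ccl17*, a CCR4 ligand of dendritic cells and some macrophages, had 0.88, 2.57 and 1.66 FPKM in WT N and 0.65, 0.1 and 0.32 FPKM in KO N. It passed the filter only through WT N, where it was high, so its being the 1 gene called lower is partly set by the filter. The call was also lost with the replicate block, without WT N replicate 2 and without KO N replicate 3. *Ccl25* and *Ccl27a* were not called. Of all tested genes, 10.5% were called lower.

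Of the receptors for these ligands, 5 of 16 reached the level tested. Of these, 3 were called lower and 1 higher, beside 10.5% and 27.1% of all tested genes. *Ccr1*, the receptor of *Ccl6*, *Ccl9*, *Ccl3* and *Ccl5*, had 96.7, 96.6 and 106 FPKM in WT N and 31.4, 27.6 and 33.2 FPKM in KO N (log2 fold change -1.69, adjusted p = 3.85e-05, limma). *Ccr2*, the receptor of *Ccl2*, *Ccl7* and *Ccl12*, went the other way, from 0.31, 0.48 and 0.81 FPKM to 2.66, 2.93 and 2.62 FPKM (log2 fold change 1.68, adjusted p = 0.000773, limma). The atypical receptor *Ccrl2* fell from 14.6 ± 1.04 to 4.74 ± 0.63 FPKM (SD, n = 3 each).

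Regulators known to act on chemokine transcription held calls in both directions. Of 30 genes, 29 were tested, and 9 were called lower and 4 higher, beside 10.5% and 27.1% of all tested genes. Their median log2 fold change was -0.11. In the interferon branch 5 of 11 were called lower, among them *Irf7* (41.3 ± 0.70 to 2.49 ± 0.28 FPKM) and *Irf1* (47.6 ± 4.13 to 11.6 ± 0.43 FPKM, SD, n = 3 each). The receptor chain *Ifngr1* was called higher. Under median-of-ratios and upper-quartile scaling 7 of these 11 were called lower, beside 16.6% and 16.1% of all tested genes. Rescaled to TPM, 4 of the 11 were called lower, beside 9.79%. Of 8 NF-kB genes, 2 were called lower, the inhibitors *Nfkbia* (log2 fold change -1.03, adjusted p = 0.000163, limma) and *Tnfaip3* (-1.08, adjusted p = 0.00509), and none of the 5 subunits was called. With median-of-ratios or upper-quartile scaling 4 of these 8 genes were called lower. The mRNA decay factor *Zfp36* was called lower (-0.27) and its relative *Zfp36l1* higher (1.11). Downstream of the receptors, 7 of 12 signalling genes were called higher and 0 lower, beside 27.1% of all tested genes called higher. These counts were 7 and 0 under each of the 4 other scalings too, under which the share of all tested genes called higher fell to as little as 15.9% (upper-quartile scaling). *Dock2* had the largest rise (5.82 ± 1.41 to 23.2 ± 3.09 FPKM, SD, n = 3 each). Of 9 proteases able to trim chemokines, 6 were tested, 3 called lower and 1 higher (10.5% and 27.1% of all tested genes), the higher one in none of the 4 other scalings, and *Mmp13* went from 67.5 ± 6.32 to 5.76 ± 0.56 FPKM (SD, n = 3 each).

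Other cell types were checked because several contribute CC chemokines. Neutrophils can express *Ccl3*, *Ccl4* and *Ccl6*, and the part of the higher neutrophil markers of KO N in the values of these genes was not tested. In a mixture, fewer cells of a type and less RNA per cell cannot be told apart. All 6 dendritic cell markers stayed under 1 FPKM, with *Flt3* listed at 0 throughout. The 7 eosinophil and mast cell markers summed to 3.41 to 4.47 FPKM in WT N and 4.64 to 5.98 FPKM in KO N. The fibroblast and endothelial list reached 288 to 430 FPKM in WT N and 327 to 379 FPKM in KO N, nearly all of it *Col1a1* and *Col3a1*, and fibroblasts are another source of *Ccl2* and *Ccl7*. *Col1a1* was not called (adjusted p = 0.675, limma) and *Col3a1* was called lower (60.7 ± 3.83 to 30.8 ± 0.06 FPKM, SD, n = 3 each). Its part in the *Ccl2* and *Ccl7* values was not tested. Of 5 B cell markers, 2 reached the level tested. *Ighm* did so only through KO N, where it was high (0.247 ± 0.17 to 9.88 ± 0.59 FPKM, SD, n = 3 each), and *Cd79b* was called higher. The sum of the list went from 0.711 to 1.35 FPKM in WT N to between 13.04 and 15.4 FPKM in KO N, and spinal cord markers summed to 4.66 to 7.08 FPKM over all libraries.

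**Figure D5:**
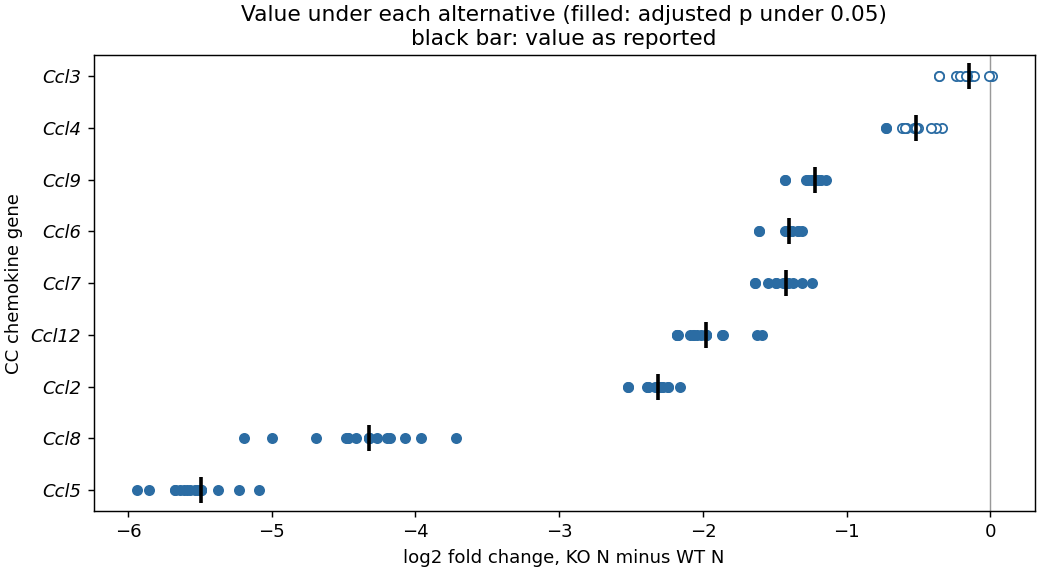
log2 fold change (KO N minus WT N) of each tested CC chemokine gene under the 17 alternative settings (points, filled where the adjusted p was under 0.05) and as reported (black bar). All points of the 7 called genes are filled and negative, 5 of 17 are filled for Ccl4 and none for Ccl3.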

How the data were processed

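The 6 libraries were grouped by their titles, 3 WT N and 3 KO N. The authors deposited FPKM per Ensembl gene and library. The submitters' processing notes name fastp 0.17.1, HISAT2 2.1.0, DESeq2 1.18.1 and R 3.4.3 without their roles, and the quantifier, annotation and build are not given in the sources used here. Labels and methods name different extraction reagents, kits and sequencers. FPKM depends on the library total, so abundant genes shift all others. Symbols and positions came from GENCODE M21 (55154 of 55335 identifiers, 99.7%).

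Values were fitted with limma 3.58.1 in R 4.3.3 (eBayes with trend, two-sided, no covariates) on log2(FPKM + 0.5) for genes averaging 0.5 FPKM or more. Whole fragments could not be recovered, so no count model was run. The fit was tested on simulated data. Python 3.11.15, scipy 1.17.1 and matplotlib 3.10.9 served the other steps.

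The members and gene lists were chosen with earlier results of these data known, so no set test was run. All members were named, with called genes of the other lists at a group mean of 5 FPKM or more, the top genes of each marker list, *Cd177*, *Ly6g* and the 3 genes most like the member with the largest fall. *Ccl17*, *Ccl25*, *Ccl27a*, *Ccr2*, *Cd79b*, the markers listed at 0 and the genes inside the clusters were named outside that rule, after their values were seen. The alternatives covered pseudocount, filter, scaling, variance estimate, replicate block and each library left out. Some results are not reported here.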

Additional observations from a re-analysis of the deposited data

How the results depend on the processing

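The 7 called CC chemokines kept their direction and an adjusted p-value under 0.05 (limma) in all 17 alternatives, with highest adjusted p-values from 0.000312 (*Ccl5*) to 0.0175 (*Ccl12*), and 0 members were called higher in any. *Ccl3* was called in none, and its difference ran from -0.242 to 0.0103 with each library left out, the upper end being without WT N replicate 3 (adjusted p = 0.916, limma). *Ccl4* was called in 5, with adjusted p = 0.0307 under median-of-ratios scaling, 0.041 under upper-quartile scaling, 0.0448 as TPM, 0.0481 under quantile normalization and 0.023 with the replicate block. Scaling moved the median of all tested genes from 0.19 to -0.00046 (median-of-ratios) and 0.00031 (upper-quartile). Counts over all genes moved with it, from 1408 lower and 3619 higher to 2215 and 2156 under median-of-ratios and to 2152 and 2122 under upper-quartile scaling. With genes under an average of 5 FPKM dropped, 2739 genes were called in place of 5027, 1756 of them higher, because fewer genes were tested. With each library left out in turn, 3489 to 5945 genes were called.

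Among the other CC genes, *Ccl17* made up the count of 1, which was 0 at a mean of at least 5 FPKM, with the replicate block, and without replicate 3 of both groups, and 0 to 1 with each library left out (0 without WT N replicate 2 or KO N replicate 3). The cause was not tested. The replicate numbers are shared between groups. Deviations of same-numbered libraries correlated at 0.116, 0.036 and 0.264, and those of differently numbered libraries at -0.233 to 0.16. Whether same-numbered libraries were handled together cannot be told from these values. In each group 1 of 3 libraries, replicate 3, correlated best with its own number. The block raised the genes called to 1681 lower and 4253 higher and left the 7 CC chemokines called. The low values of *Ccl8*, *Ccl5* and *Ccl24* in KO N are limited by depth.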
